A study of Mus musculus with 3 samples.

Results

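The cells described here were the Neurod1-positive neuronal precursors of the mouse vomeronasal organ (VNO), a chemosensory organ in the nose whose epithelium makes new sensory neurons throughout life. They were 178 of the 15711 cells kept from 27359 barcodes in 3 single-cell RNA-seq libraries. A barcode was kept when it had 200 to 9000 genes and at most 10% of its unique molecular identifiers (UMIs, 1 per captured transcript) on mitochondrial genes. A kept cell was a precursor when it held at least 2 Neurod1 UMIs and when the microglia and macrophage genes C1qa, C1qb and C1qc made up at most 0.1% of its UMIs. A precursor with at least 2 UMIs of Mki67 and Top2a, which encode proteins of cycling nuclei, was called dividing. There were 56 dividing and 122 non-dividing precursors.

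All 3 libraries came from male mice on a mixed C57 BL/6J and 129P2/OlaHsd background, and all carried OMPCre in heterozygous form. In this allele the Cre recombinase is made from the locus of olfactory marker protein (Omp), a gene of maturing sensory neurons. The control was taken at postnatal day 10 (P10) and carried OMPCre alone. The mutants, at P10 and at 3 months, also carried R26AP2e (OMPCreR26AP2e, double heterozygous), a Rosa26 transgene through which Cre switches on AP-2ε, the product of Tfap2e and a transcription factor of basal vomeronasal sensory neurons (VSNs). Each group had 1 library, and the number of animals in it was not given in the sources used here. Genotype and library therefore cannot be told apart at P10, nor age and library between the mutants, and no test between groups was possible. Values are CPM, the UMIs of a gene per 1000000 UMIs summed over the cells of a set. Ranges in parentheses are 95% intervals (exact Poisson for CPM, Clopper-Pearson for shares, conditional exact binomial for ratios) that cover counting error only, since cells of 1 library are not replicates.

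New VSNs arise from progenitors that divide, switch on the proneural gene Neurog1 and then Neurod1, leave the cell cycle and send out an axon. As they mature they become apical VSNs, which use the G protein subunit Gnai2 and the transcription factor Meis2, or basal VSNs, which use Gnao1 and Tfap2e. Notch receptors on one precursor bind Delta and Jagged ligands on its neighbor, and the signal keeps genes of the Hes and Hey families on and holds back neuronal genes. Bcl11b, a zinc finger transcription factor, takes part in the choice between the apical and the basal type.

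Depth was similar between the P10 libraries and lower at 3 months: kept cells had median UMIs of 10236, 10766 and 5010.5 in the control, P10 mutant and 3-month mutant. Precursors had medians of 13582, 15364 and 10379 UMIs and 1784791, 789532 and 263573 UMIs in all, so single genes were measured least precisely at 3 months. Any pair of libraries shared 21 to 30 barcode sequences, and 1 precursor had such a barcode. UMIs of other cell types were present. Genes of macrophages, neutrophils, lymphocytes, red blood cells, glands, and stroma and endothelium together passed 0.2% of the UMIs of 16, 5 and 6 precursors. The largest single case was a dividing cell of the control with 12.3% of its UMIs on genes of the stroma and endothelium list, and it held 77.6% of that list's UMIs in the precursors of its library. Of that list Kdr, a receptor gene of endothelium, was at 0 UMIs in all precursors. Its endothelial genes Pecam1 and Cdh5 were found in precursors of both P10 libraries and were at 0 at 3 months. Genes of the main olfactory neuron list had 64, 23 and 7 UMIs in 37 of 113, 11 of 42 and 4 of 23 precursors, and its Cnga2 and Stoml3 were at 0 UMIs in every library. The basal epithelium list had 49, 14 and 2 UMIs in 26, 10 and 2 precursors, and the basal cell gene Trp63 was at 0. Genes of sustentacular cells, the supporting cells of the epithelium, passed 0.2% in 3, 3 and 0 precursors.

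Neurod1 (chr2:79452521-79456751, minus strand, GRCm38) had a median of 12, 11 and 23 UMIs in the precursors of the 3 libraries and up to 73, 65 and 114. Exactly 2 UMIs were found in 17, 4 and 2 precursors, and 67, 37 and 16 cells with 1 Neurod1 UMI and little C1q lay just outside. The C1q limit left out 2, 0 and 2 cells, whose C1q share was at least 0.738% in the control and 0.221% at 3 months, against at most 0.0573% and 0.0976% inside.

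Other marker genes of neuronal precursors were found in most of these cells. Sox11, a transcription factor gene of newly born neurons, was seen in 108 of 113, 42 of 42 and 22 of 23 precursors, and Insm1, a zinc finger gene of dividing neuronal precursors, in 100, 39 and 15. Immature neurons of the same library (at least 2 UMIs each of Gap43 and Tubb3, no Neurod1, the same C1q limit, 402, 200 and 58 cells) served as the neighboring stage. Hes6, which promotes neuronal differentiation, was 15.2, 15.7 and 13.2 times higher in precursors than in immature neurons, Sox11 5.27, 5.28 and 7.79 times, and the LIM homeobox gene Lhx2 2.91, 3.74 and 4.38 times. Ebf1, a transcription factor gene kept on through differentiation, was near the level of immature neurons, at 0.760, 0.919 and 0.894 times. Neurog1 was at 189, 130.5 and 269 CPM in precursors and at 1.10, 0.380 and 1.50 CPM in immature neurons. Gap43, a growth cone gene, went the other way, at 0.323, 0.233 and 0.220 of the immature neuron level, but it was also used to choose those neurons. Omp had 4, 2 and 0 UMIs in all precursors. Pooled over cells, nothing in these markers went against the label of neuronal precursors in any library. Single cells varied. The 6 precursor marker genes, Neurod1 among them, had cell medians of 9332, 8224 and 8365 CPM, and the lowest cells had 146, 230 and 1942 CPM. Insm1 was seen in 8 of 16 non-dividing cells at 3 months. Some members may thus be other cells or mixtures, which was not tested.

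Precursors were a smaller share of kept cells in both mutant libraries than in the control. They made up 2.36% (1.95% to 2.83%) of kept cells in the control (113 of 4795), 1.06% (0.766% to 1.43%) in the P10 mutant (42 of 3956) and 0.330% (0.210% to 0.495%) in the 3-month mutant (23 of 6960). The intervals did not overlap. With every cell thinned to 2000 UMIs and shallower cells left out (1165, 607 and 2228), the shares were 1.60% (1.22% to 2.06%), 0.627% (0.389% to 0.957%) and 0.317% (0.178% to 0.522%). The P10 mutant and 3-month intervals then overlapped, and with a mitochondrial limit of 5% the P10 intervals did (1.65%, 1.08% to 2.41%, against 0.706%, 0.323% to 1.34%). Kept cells included all other cell types of the organ, so a share also moves with their numbers. Against immature neurons, a lineage neighbor, there were 28.1 precursors per 100 in the control, 21.0 in the P10 mutant and 39.7 at 3 months. By this measure the 3-month value was highest and not lowest, but it rests on 23 precursors and 58 immature neurons. No interval was formed for it, so the order of the libraries is uncertain.

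Dividing cells were 29.2% (21.0% to 38.5%) of precursors in the control (33 of 113), 38.1% (23.6% to 54.4%) in the P10 mutant (16 of 42) and 30.4% (13.2% to 52.9%) at 3 months (7 of 23). These intervals overlapped widely, and a difference between libraries was not detectable at this number of cells. After thinning, the shares were 25.9%, 23.8% and 26.7%. The dividing cells held a median of 21, 19.5 and 53 UMIs of Mki67 and Top2a, while 104 of the 122 non-dividing cells held none and 18 held 1, so the line between the classes fell in a sparse region, with 6 cells at exactly 2. Dividing cells were also deeper, with median UMIs of 21458, 19818 and 20231 against 12720, 14714 and 6696.

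**Figure D1:**
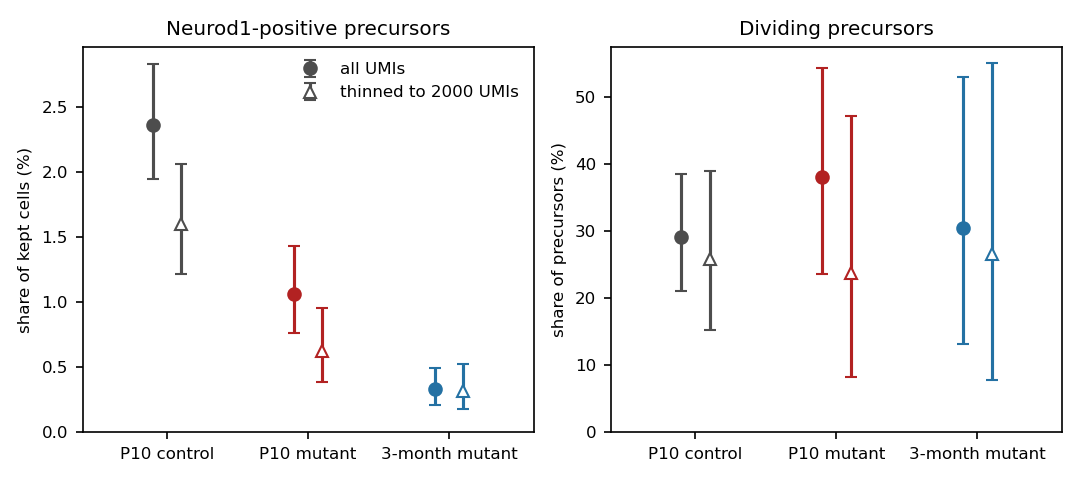
Share of kept cells that were Neurod1-positive precursors (left, %) and share of precursors that were dividing (right, %) in the 3 libraries; filled circles use all UMIs, open triangles cells thinned to 2000 UMIs, and bars are Clopper-Pearson 95% intervals. The precursor share falls in the order control (2.36%), P10 mutant (1.06%), 3-month mutant (0.330%), while the intervals of the dividing shares overlap.

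Dividing and non-dividing precursors were next compared within each library, which gave 3 values per gene. The split rests on Mki67 and Top2a of the same cells, so these values are a description. A few deep cells with little Neurod1 weigh in the pooled levels of all genes. In the control, non-dividing cells with 52676, 81575 and 92749 of the set's 1073369 UMIs held 2, 2 and 3 Neurod1 UMIs. In the P10 mutant, dividing cells with 46133 and 52072 of 368692 UMIs held 2 each. The control cells weigh in the P10 comparison of non-dividing cells too. The alternative with Neurod1 from 4 UMIs leaves all of them out. A gene entered a count when it had at least 30 UMIs over both sets, which favors genes high in either set, and counts refer to those genes only. Genes of the G2 and M phases, when a cell readies itself for and goes through mitosis, were higher in dividing cells without exception: 22 of 22 were at least 2-fold higher in the control, 18 of 18 in the P10 mutant and 6 of 6 at 3 months. Over all genes, 7.59%, 7.95% and 12.4% were at least 2-fold higher, and 10.7%, 11.0% and 14.8% at least 2-fold lower. The list had median log2 ratios of 4.92, 3.64 and 4.10, the last 4.04 with genes at 0 UMIs in 1 set at their bound. UMIs of the stroma and endothelium list also differed between the classes in the control, at 4741 and 373 CPM in dividing and non-dividing cells, and those of sustentacular cells in the P10 mutant, at 1031 and 406 CPM. Without the members that held UMIs of other or sustentacular cells, a setting chosen after seeing the data, the median log2 ratios of the G2 and M phase list, with such bounds, were 5.17, 3.83 and 3.96, while the P10 mutant ratio of Hes1 was 0.0645 in place of 2.10 and that of the sustentacular gene Cbr2 0.115 in place of 2.78. Spc25, a kinetochore gene, had 184 UMIs in dividing and 11 in non-dividing cells of the control, 66 and 4 in the P10 mutant and 61 and 1 at 3 months. The mitotic kinase gene Cdk1 was 9.46 (6.67 to 13.8), 23.3 (9.66 to 73.2) and 7.94 (3.93 to 18.2) times higher. Pbk, a mitotic kinase gene, was 119 (32.5 to 993) times higher in the control and at least 23.6 and 14.5-fold higher in the mutants, where non-dividing cells had 0 UMIs, taken as at most 3. Hmgb2, a chromatin gene of cycling cells, was the most abundant of the 10 genes named as higher in dividing cells, at 4765 and 581 CPM, 3911 and 528 CPM and 5462 and 546 CPM in dividing and non-dividing cells.

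S phase genes, which copy DNA, were higher by less. At least 2-fold were 10 of 15, 8 of 9 and 4 of 4, with median log2 ratios of 1.25, 1.82 and 2.03. Pcna, the sliding clamp of DNA polymerase, was 2.59 (1.98 to 3.41), 3.67 (2.27 to 6.15) and 4.72 (2.24 to 11.1) times higher in dividing cells. Non-dividing precursors still held 82.0, 54.7 and 64.7 CPM of it, where Spc25 was at 10.2, 9.50 and 7.19 CPM. Cells in S phase before Mki67 and Top2a are seen would be counted as non-dividing by the rule, and their number was not estimated.

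The promoters of 3 of the 5 highest ranked genes of dividing cells are shown because each holds a pair of short motifs. The windows run from 250 bases before to 50 after the start site (RefSeq, GRCm38.p6, 5′ to 3′ on the strand of the gene), with CCAAT, and TTTGAA of the cell cycle homology region on either strand, in capitals. Spc25 lies at chr2:69206164-69206463 (minus strand), Hmgb2 at chr8:57511593-57511892 (plus strand) and Prc1, which encodes a protein that bundles spindle microtubules, at chr7:80294201-80294500 (plus strand).
Spc25: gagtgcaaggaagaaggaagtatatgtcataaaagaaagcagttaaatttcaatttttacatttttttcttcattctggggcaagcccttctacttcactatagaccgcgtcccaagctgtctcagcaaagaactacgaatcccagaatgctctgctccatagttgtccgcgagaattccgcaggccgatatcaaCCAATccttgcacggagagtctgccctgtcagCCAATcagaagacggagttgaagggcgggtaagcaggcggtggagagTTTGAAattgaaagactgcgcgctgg
Hmgb2: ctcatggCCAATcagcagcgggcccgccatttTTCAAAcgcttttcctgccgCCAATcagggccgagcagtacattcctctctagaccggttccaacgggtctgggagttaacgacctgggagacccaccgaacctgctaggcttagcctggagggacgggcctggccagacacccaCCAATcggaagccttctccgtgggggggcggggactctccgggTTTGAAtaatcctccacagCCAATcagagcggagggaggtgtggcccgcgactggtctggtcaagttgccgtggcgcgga
Prc1: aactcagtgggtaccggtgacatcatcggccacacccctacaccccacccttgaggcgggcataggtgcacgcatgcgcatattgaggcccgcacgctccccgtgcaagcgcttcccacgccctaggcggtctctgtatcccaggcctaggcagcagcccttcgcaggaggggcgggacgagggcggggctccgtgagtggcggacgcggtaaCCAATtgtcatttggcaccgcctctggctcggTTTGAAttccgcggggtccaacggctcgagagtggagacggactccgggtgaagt
A CCAAT word lies 55 and 23 bases before the start in Spc25, 243, 198, 73 and 11 bases before it in Hmgb2 and 37 bases before it in Prc1. Of the 32851 promoter windows, 37.4% held CCAAT, 17.9% TTTGAA and 6.95% both, on either strand; these words can share 1 base. Both were in 12 of the 19 G2 and M phase genes with a window, in 5 of the 7 matched genes of the named dividing group (Spc25, Hmgb2, Prc1, Cdk1 and Selenoh), in 1 of 15 S phase genes and in 0 of 10 immature neuron genes. The E2F words TTTCGCGC and TTTGGCGC were in 5 of the 15 S phase windows and in 0.813% of all. A match is a description of letters and not a shown binding site.

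Proneural genes differed in both directions between dividing and non-dividing precursors. Of the proneural genes counted, 8 of 20, 8 of 18 and 5 of 15 were at least 2-fold higher and 2, 4 and 4 at least 2-fold lower. Neurog1 (chr13:56250478-56252163, minus strand), which acts before Neurod1, was 4.64 (3.60 to 6.01), 5.05 (3.04 to 8.80) and 2.66 (1.57 to 4.66) times higher, although 1 cell held 90.5% of its 21 UMIs in non-dividing cells at 3 months. It was seen in 29 of 33, 13 of 16 and 6 of 7 dividing cells and in 31 of 80, 8 of 26 and 3 of 16 non-dividing cells. Pax6, a homeobox gene of neural progenitors, was at 149 and 26.1 CPM, 157 and 19.0 CPM and 209 and 28.8 CPM in dividing and non-dividing cells. Hes6 was higher in dividing cells by 2.40, 2.54 and 3.71 times, and Insm1 3.15, 2.63 and 4.01 times. Sox2, a stem cell factor, was 2.58 (2.03 to 3.29) and 3.00 (2.09 to 4.37) times higher at P10 and 0.790 (0.474 to 1.30) times at 3 months, where the interval held 1. Sox11 and Lhx2 did not follow the split closely, with ratios of 0.974, 0.610 and 0.716 and of 1.01, 0.671 and 0.832.

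Myt1l, which represses non-neuronal genes in neurons after mitosis, was the proneural gene with the lowest ratio in each library, at 0.250 (0.203 to 0.306), 0.0754 (0.0472 to 0.115) and 0.103 (0.0519 to 0.186). The helix-loop-helix gene Ebf3 was at 0.455, 0.201 and 0.380, and Nhlh1, another helix-loop-helix gene of newly formed neurons, at 0.642, 0.235 and 0.234. Among genes of cycle exit, Cdkn1a (p21, chr17:29090976-29100727, plus strand), an inhibitor of cyclin-dependent kinases, was at 53.4 and 416 CPM, 51.5 and 356 CPM and 48.2 and 467 CPM, ratios of 0.129, 0.145 and 0.103. It was seen in 58 of 80, 22 of 26 and 11 of 16 non-dividing cells. Cdkn1b (p27), of the same family, did not differ in the same way, with ratios of 1.07 (0.830 to 1.38), 0.546 (0.372 to 0.790) and 0.845 (0.498 to 1.42). Ccnd1, a cyclin of the G1 phase, was 2.22 (1.79 to 2.75) and 7.35 (5.05 to 11.0) times higher in dividing cells at P10 and 0.957 (0.653 to 1.40) times at 3 months, and 1 cell held 71.4% of its non-dividing UMIs there. Ccnd2 had a ratio of 0.384 (0.242 to 0.591) in the control, with 54.7% of its non-dividing UMIs in 1 cell. With a mitochondrial limit of 5% its log2 ratio was 2.34 (0.93 to 4.08) in place of -1.38.

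Notch1 had most of the Notch receptor UMIs in control precursors, 198 of 231. It was the only Notch receptor gene with at least 30 UMIs over both sets. Notch1 (chr2:26457903-26516663, minus strand) was at 181 and 64.3 CPM in dividing and non-dividing cells of the control, 206 and 59.4 CPM in the P10 mutant and 161 and 93.5 CPM at 3 months. The ratios were 2.82 (2.09 to 3.84), 3.47 (2.18 to 5.69) and 1.72 (0.814 to 3.76), and the last interval held 1. At 3 months 1 cell held 84.6% of the 13 non-dividing UMIs. It was seen in 27 of 33, 14 of 16 and 5 of 7 dividing cells, and in 28 of 80, 11 of 26 and 2 of 16 non-dividing cells; in cells with C1q, which were shallower, the shares were 11.4%, 15.6% and 7.69%. Of the ligand genes, Dll4 (chr2:119325784-119335962, plus strand) was higher in dividing cells, at 45.0 and 16.8 CPM in the control, a ratio of 2.68 (1.46 to 5.08), and with 16 UMIs against 1 in the P10 mutant and 7 against 1 at 3 months. Dll1 and Dll3, the other Delta genes, had 18 and 11 UMIs in all precursors of the control.

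Of the Notch modulators counted, Lfng and Mfng were at least 2-fold higher in dividing cells of both P10 libraries, and none was at least 2-fold lower. The target Hes1 was at 0.292 (0.166 to 0.487) in control cells, and at a log2 ratio of 0.89 with a mitochondrial limit of 5%. Its ratio in the P10 mutant was 2.10 (1.40 to 3.21), with 62.9% of the dividing UMIs in 1 cell, and 0.0645 (0.00156 to 0.399) without the members that held UMIs of other or sustentacular cells. Mfng and Lfng encode Fringe glycosyltransferases, which change the ligand preference of Notch receptors. Mfng was at 626 and 176 CPM, 396 and 121 CPM and 498 and 158 CPM, and its ratios of 3.55 (2.99 to 4.23), 3.27 (2.36 to 4.59) and 3.15 (1.91 to 5.38) were alike in the 3 libraries. Lfng was 3.17 (2.30 to 4.42) and 10.7 (4.29 to 34.6) times higher at P10 and at least 2.23-fold higher at 3 months, from 6 UMIs against 0. Of the target genes, Hes5 had 154 UMIs in dividing and 100 in non-dividing cells of the control, 56 and 1 in the P10 mutant and 25 and 15 at 3 months. These UMIs were in few cells, 15 of 33, 9 of 16 and 2 of 7 dividing cells and 7 of 80, 1 of 26 and 1 of 16 non-dividing cells. Nrarp, which encodes a feedback inhibitor of Notch, was 4.05 (2.24 to 7.71) and 5.71 (2.34 to 16.8) times higher at P10, and Hey1 1.88 (1.37 to 2.58) and 2.96 (2.02 to 4.39) times. At 3 months their ratios were 0.782 (0.253 to 2.28) and 0.768 (0.322 to 1.76), from 17 and 27 UMIs in all. Few cells weighed on the Hey1 ratios at P10. In the control, cells with 2 and 3 Neurod1 UMIs held 16 and 29 of the 74 non-dividing Hey1 UMIs. In the P10 mutant, dividing cells with 2 Neurod1 UMIs each held 30 and 17 Hey1 UMIs. The order of the P10 Hey1 ratios therefore rests on these cells, and values without them are not given here.

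The genes of apical and basal identity were mostly lower in dividing cells: none was at least 2-fold higher, and 4 of 10, 7 of 10 and 5 of 6 were at least 2-fold lower. Meis2 (chr2:115863064-116065839, minus strand), of the apical type, was at 162 and 878 CPM in dividing and non-dividing cells of the control, 171 and 815 CPM in the P10 mutant and 169 and 1172 CPM at 3 months, with ratios of 0.184 (0.150 to 0.224), 0.210 (0.158 to 0.275) and 0.144 (0.0867 to 0.227). The 3 intervals overlapped. Gnai2 was at 0.419, 0.486 and 0.470, and Gnao1, its basal counterpart, at 0.545, 0.360 and 0.208, so genes of both types were lower in dividing cells. Nrp2, an axon guidance receptor of apical VSNs, was at 0.474 (0.342 to 0.647) and 0.0643 (0.0171 to 0.172), and at 3 months it was at least 7.16-fold lower, with 0 UMIs in dividing cells. Robo2, the guidance receptor of basal VSNs, was at 0.510, 0.212 and 0.179. Bcl11b differed from the rest of the list, at 259 and 158 CPM, 236 and 207 CPM and 193 and 151 CPM, with ratios of 1.63 (1.32 to 2.02), 1.14 (0.838 to 1.55) and 1.28 (0.681 to 2.41). With a mitochondrial limit of 5%, which left 26 precursors in the control, its log2 ratio there was -1.59 in place of 0.71.

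Genes of neurite growth marked the non-dividing cells. None of the immature neuron genes was at least 2-fold higher in dividing cells, and 7 of 16, 11 of 16 and 8 of 14 were at least 2-fold lower. Gap43 (chr16:42248442-42340651, minus strand) was at 84.3 and 295 CPM, 35.3 and 240.0 CPM and 24.1 and 280.4 CPM, ratios of 0.286 (0.213 to 0.377), 0.147 (0.0756 to 0.263) and 0.0859 (0.0170 to 0.270). It was seen in 52 of 80, 17 of 26 and 8 of 16 non-dividing cells. Stmn2 and Stmn4, which encode stathmins that destabilize microtubules, had ratios of 0.410, 0.242 and 0.137 and of 0.215 (0.150 to 0.300), 0.0134 (0.000336 to 0.0769) and 0.124 (0.0140 to 0.518). The microtubule gene Dcx was at 0.852, 0.375 and 0.508. By the rule for named genes, the genes most clearly lower in dividing cells of all libraries also held Trnp1, a nuclear protein gene studied in cortical progenitors, at 52.0 and 340.1 CPM, 10.8 and 368 CPM and 0 and 338 CPM, and the intermediate filament gene Vim, at 451 and 1424 CPM, 409.6 and 1421 CPM and 80.3 and 1366 CPM. Uchl1, which encodes a deubiquitinase of neurons, had ratios of 0.361, 0.300 and 0.141. Crabp1 (chr9:54764748-54773110, plus strand), which encodes a retinoic acid binding protein, was named in the comparison of ages and was one of the lowest here too, at 0.0466 (0.0270 to 0.0754), 0.0945 (0.0608 to 0.141) and at least 11.3-fold lower at 3 months. Of the 1429 genes with 30 UMIs in every library, 439 were higher in dividing cells of all libraries and 413 lower, with no minimum fold.

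**Figure D2:**
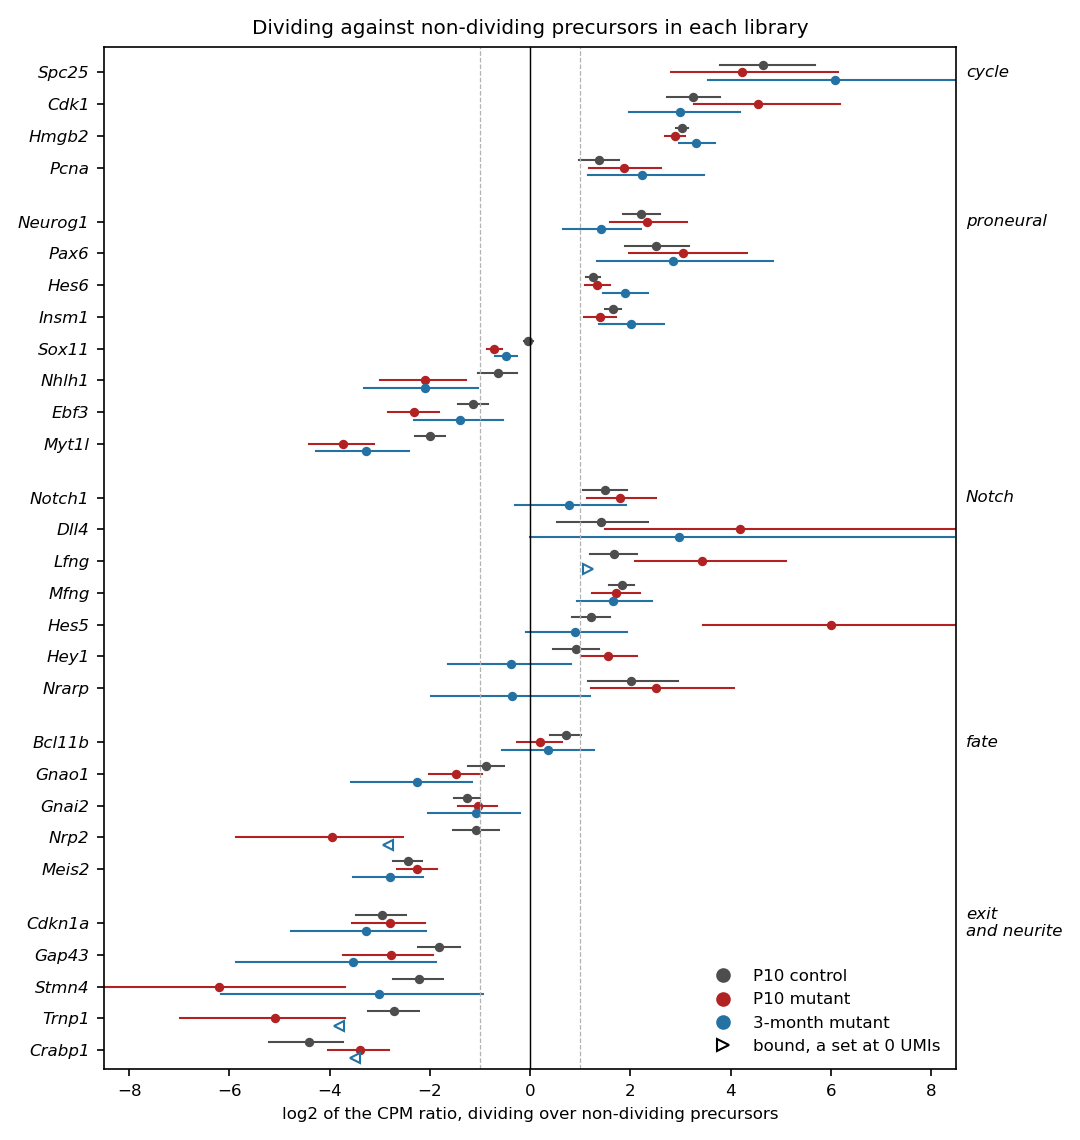
Log2 of the CPM ratio of dividing over non-dividing precursors for genes grouped by role, in the control (grey), P10 mutant (red) and 3-month mutant (blue); lines are 95% intervals for counting error, open triangles bounds where 1 set had 0 UMIs, and dashed lines mark 2-fold. Cell cycle genes, Neurog1 and Mfng lie to the right and Meis2, Cdkn1a, Gap43 and Myt1l to the left in all libraries, and intervals that pass the axis are cut at its ends.

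Within the non-dividing precursors Meis2 was present in some cells and absent from others of like median depth. This split was chosen after the values had been seen and is a description. The paper states that sustentacular cells express Meis2 too, so its UMIs alone do not mark a member as apical. In the P10 mutant, 1 non-dividing cell with 10 Meis2 UMIs held 53 UMIs of the sustentacular gene Cbr2 and 2 of Neurod1. The split was not repeated without such cells. No Meis2 UMI was found in 30 of 80, 12 of 26 and 8 of 16 non-dividing cells, 1 to 3 UMIs in 14, 2 and 2, and 4 or more in 36, 12 and 6. No cell had 4 or 5 UMIs, and 23, 7 and 4 cells had 20 or more, with up to 52, 63 and 57. Median UMIs of the cells with and without Meis2 were 13294 and 11658, 15172 and 12054, and 8076 and 6384. The deepest cells with and without Meis2 had 92749 and 18828 UMIs in the control and 53592 and 21242 in the P10 mutant. Among dividing cells, 6 of 33, 5 of 16 and 2 of 7 had 4 or more, and 1, 1 and 0 had 20 or more. Cells with 20 or more Meis2 UMIs were therefore mostly non-dividing.

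Against non-dividing cells without Meis2, 10.8% and 3.37% of all genes were at least 2-fold higher and lower in control cells, 10.5% and 6.20% in the P10 mutant and 7.48% and 9.74% at 3 months. Of the genes of apical and basal identity, 2 of 8 (Nrp2 and Pbx3), 0 of 8 and 2 of 4 (Gnai2 and Pbx3) were at least 2-fold higher, and 1, Bcl11b in the P10 mutant, at least 2-fold lower. Gnai2 had ratios of 1.23 (1.01 to 1.51), 1.05 (0.775 to 1.44) and 4.18 (1.75 to 11.5). Nrp2 was 4.59 (2.60 to 8.83) and 6.50 (1.86 to 34.8) times higher in the control and at 3 months, and 1.44 (0.828 to 2.61) times in the P10 mutant. The homeobox gene Pbx3 was 2.07 (1.39 to 3.18), 1.64 (0.904 to 3.12) and 8.23 (2.87 to 32.4) times higher. Gnao1, of the basal type, was at 0.567 (0.427 to 0.754), 0.500 (0.344 to 0.726) and 0.530 (0.225 to 1.16), and Bcl11b at 0.657 (0.473 to 0.919), 0.447 (0.276 to 0.716) and 0.0717 (0.00172 to 0.458). Both were thus lower with Meis2 in the pooled UMIs of the P10 libraries, and both were still detected. Deep cells weigh most in these pools. On the Meis2 side of the control, cells with 52676, 81575 and 92749 UMIs held 2, 1 and 0 Gnao1 UMIs. They held 2, 2 and 3 Neurod1 UMIs. In the P10 mutant, cells with 23312, 24782, 29081 and 53592 UMIs held 1, 5, 0 and 9 of Gnao1. Ratios without these cells are not given here. Neurite genes varied: Stmn4 was 5.10 (3.27 to 8.39), 7.62 (3.34 to 21.4) and 7.32 (1.63 to 67.3) times higher, Gap43 2.17 (1.60 to 3.00), 1.33 (0.836 to 2.16) and 14.6 (3.63 to 128) times, and Elavl4, an RNA binding protein gene of neurons, was at 0.402 (0.335 to 0.482), 0.661 (0.517 to 0.846) and 0.665 (0.412 to 1.06).

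Proneural genes differed in both directions between these cells. Of those with 30 UMIs over both sets, 1 of 15 (Sox2), 0 of 13 and 1 of 11 (Ebf1) were at least 2-fold higher with Meis2, and 1 (Neurog1), 2 (Insm1 and Lhx2) and 1 (Sox2) at least 2-fold lower. Sox2 had a ratio of 2.62 (1.45 to 5.13) in the control, where 1 cell held 53.1% of its UMIs on the Meis2 side. Neurog1 was at 0.300 (0.160 to 0.552), 0.174 (0.0418 to 0.555) and 0.0610 (0.00147 to 0.381) in cells with Meis2 over cells without, from 20 and 28 UMIs in control cells, 4 and 14 in the P10 mutant and 1 and 20 at 3 months. Of the Notch modulator genes 2 of 4 (Lfng and Mfng) were at least 2-fold lower with Meis2 in control cells and 0 of 2 in the P10 mutant. Mfng had ratios of 0.198 (0.132 to 0.291), 0.552 (0.281 to 1.08) and 0.359 (0.103 to 1.01) in the 3 libraries. Hes5 had 0 UMIs in the Meis2-positive cells of the control and 67 in 4 of the cells without Meis2, at least 53.1-fold apart. In the P10 mutant it had 1 and 0 UMIs, and at 3 months 0 and 15, all in 1 cell. Ccnd1 had 1 UMI with Meis2 and 96 without in the control, from 7 cells, and in the P10 mutant 20 UMIs in 1 cell with Meis2 and 12 in 2 cells without. Cdkn1a was found on both sides, at 371 and 594 CPM, 273 and 496 CPM, and 323 and 546 CPM.

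**Figure D3:**
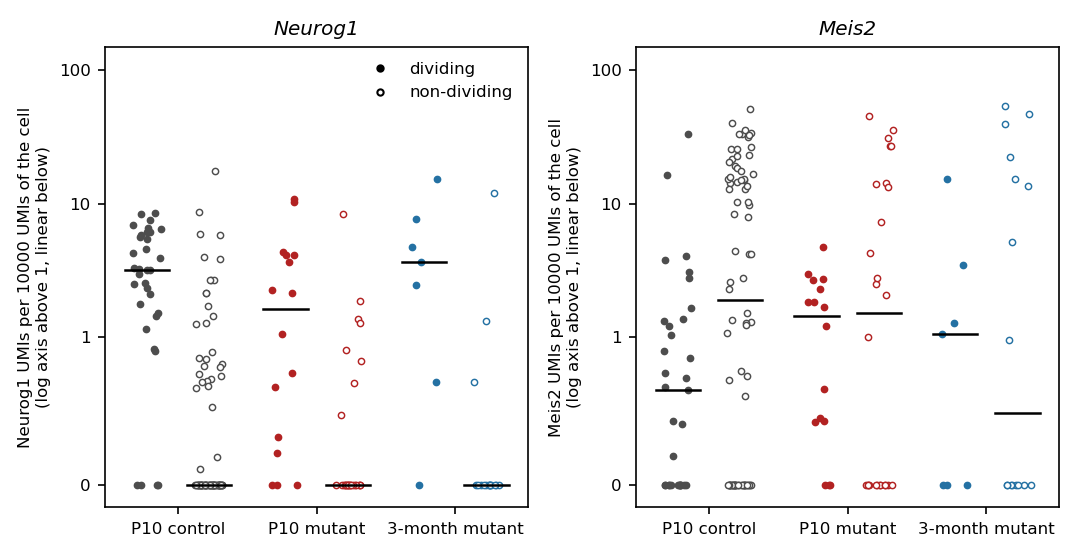
Neurog1 (left) and Meis2 (right) in each of the 178 precursors, as UMIs per 10000 UMIs of the cell (log axis above 1, linear below), in dividing (filled) and non-dividing (open) cells of the 3 libraries; black lines are medians over cells. The Neurog1 median is 3.21, 1.61 and 3.68 in dividing cells and 0 in non-dividing cells. Non-dividing cells range from 0 to high Meis2 with cells between, 14, 2 and 2 of them with 1 to 3 Meis2 UMIs.

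Ligand and receptor were at times seen in the same cell. Of the precursors of the control 23 had a Dll4 UMI, 55 a Notch1 UMI and 15 both. In the P10 mutant the numbers were 7, 25 and 6, and at 3 months 4, 7 and 2. From the shares of the 2 genes, 11.2, 4.17 and 1.22 cells with both were expected. Among dividing cells 9, 6 and 2 had both, with 9.82, 5.25 and 2.14 expected. Among non-dividing cells 6, 0 and 0 had both, with 3.85, 0.423 and 0.125 expected. Deeper cells show both genes more often, and the dividing cells, which were deeper, held 12, 6 and 3 of the Dll4-positive cells. In cells with C1q, of lower median depth, a Dll4 UMI was found in 0 of 393 (at most 0.934% of cells by the interval), 3 of 302 and 2 of 1365.

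As a description, since the genes that define the sets were read from the same cells, cells of the control with Dll4 and no Notch1 (8 cells, median 12800 UMIs) were set beside those with Notch1 and no Dll4 (40 cells, 15847 UMIs). Hes5 was at 11.0 against 140.4 CPM, Hey1 at 22.1 against 149 CPM and Nrarp at 11.0 against 59.5 CPM, with ratios of 0.0785 (0.00197 to 0.446), 0.148 (0.0178 to 0.547) and 0.185 (0.00460 to 1.08). On the Notch1 side, cells with 81575 and 92749 UMIs held 16 and 29 Hey1 UMIs and 2 and 3 Neurod1 UMIs. Their depth gives them a large weight in every pooled level of that side, and values without them are not given here. Neurog1 was at 408 against 179 CPM and Hes6 at 1852 against 742 CPM, ratios of 2.28 (1.55 to 3.29) and 2.50 (2.09 to 2.97). Sox4 had a ratio of 0.564 (0.345 to 0.876), Stmn4 0.248 (0.0504 to 0.744), Sox11 0.886 (0.755 to 1.03) and Myt1l 0.885 (0.595 to 1.27). Ccnd1 was at 22.1 against 208 CPM, Bcl11b at 88.2 against 286 CPM and Meis2 at 221 against 427 CPM. With 1 and 2 cells having Dll4 alone in the mutant libraries, the same comparison was not made there.

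The transgene was examined in precursors because it depends on Cre from the Omp locus, and Omp itself was nearly absent here. Tfap2e (chr4:126716006-126736240, minus strand) had 2 UMIs in 2 of 113 precursors of the control, 43 UMIs in 14 of 42 of the P10 mutant and 2 UMIs in 2 of 23 at 3 months. These were levels of 1.12, 54.5 (39.4 to 73.4) and 7.59 CPM. Transgene and endogenous transcripts were counted together under this gene. Cells with C1q, which should lack the gene, held 2.15, 20.1 and 13.4 CPM, and immature neurons 47.1, 331 and 176 CPM. In the P10 mutant 1 non-dividing precursor held 23 of the 43 UMIs. Without it the level was 26.3 CPM (16.1 to 40.6), an interval that held the level of the cells with C1q, and without the precursors that had UMIs of other cell types it was 26.6 CPM (16.0 to 41.5). At an equal depth of 2000 UMIs the expected share of cells with a Tfap2e UMI was 6.76% of P10 mutant precursors and 3.45% of its cells with C1q. Thus the P10 mutant precursors held more Tfap2e than control precursors by a log2 ratio of 5.60 (3.66 to 8.69) and less than mutant immature neurons, while apart from 1 cell they were not separated from the background of their own library. The 3-month level of 7.59 CPM (0.919 to 27.4) included that of its cells with C1q.

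Non-dividing precursors of the P10 mutant and the control differed by less than 2-fold in most genes of their stage. Of all 6706 genes with at least 30 UMIs over both sets, 1.95% were at least 2-fold higher in the mutant and 3.00% at least 2-fold lower. None of 18 proneural genes and none of 16 immature neuron genes was 2-fold apart, with median log2 ratios of -0.01 and 0.17. Of the 10 identity genes counted, only Tfap2e was. Meis2 was at 815 and 878 CPM in the mutant and the control, a ratio of 0.929 (0.818 to 1.05), Nrp2 at 169 and 160.2 CPM (ratio 1.05, 0.787 to 1.40) and Bcl11b at 207 and 158 CPM (ratio 1.31, 0.996 to 1.70). Notch1 had a ratio of 0.924 (0.560 to 1.48) and Gap43 one of 0.813 (0.643 to 1.02). For these genes no difference between the libraries was detectable, though each interval allows one. Insm1 was lower in the mutant, at 276 against 457 CPM (ratio 0.604, 0.489 to 0.741). In cells without Neurod1 its ratio was 0.572.

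Of the Notch modulators and targets, Lfng (chr5:140607320-140615545, plus strand) and Hes5 (chr4:154960923-154962371, plus strand) were more than 2-fold lower in the P10 mutant. Lfng had 5 UMIs in 5 of 26 mutant cells and 58 in 14 of 80 control cells, a ratio of 0.220 (0.0688 to 0.543). Hes5 had 1 UMI in the mutant and 100 in 7 cells of the control, a ratio of 0.0255 (0.000639 to 0.145), and 1 of those cells held 32.0% of them. In dividing cells the ratios were 0.743 (0.519 to 1.05) and 0.702 (0.507 to 0.959). The ratios of both genes were thus nearer 1 in dividing cells, few non-dividing cells carried the genes, and the difference between the classes was not tested.

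Ranked by the interval bound nearest 1, the genes furthest apart between the P10 libraries were mostly outside the lists. Acap2 (chr16:31092412-31201245, minus strand), a GTPase-activating protein gene, had the highest lower bound, at 52.3 against 13.0 CPM, a ratio of 4.01 (1.96 to 8.47). Zmynd8 (chr2:165784152-165899016, minus strand), which encodes a reader of histone marks, was the most abundant of those higher, at 392 against 174 CPM (ratio 2.25, 1.81 to 2.79), and it was seen in 19 of 26 mutant and 43 of 80 control cells. Pcdh9, a protocadherin gene, was 2.67 (1.72 to 4.15) times higher and the corepressor gene Cbfa2t2 2.41 (1.46 to 3.96) times. In dividing cells the ratios of these 4 genes were 1.14, 0.965, 0.276 and 0.503, and in immature neurons 1.06, 0.882, 0.833 and 0.821. Ratios of the size seen in non-dividing precursors were not found in those sets. The genes were chosen by their ratio in non-dividing precursors, so smaller ratios elsewhere are favored by the choice. AA465934, a processed transcript (chr11:83291699-83294632, plus strand), was higher in all sets: 2.65 in non-dividing and 4.82 in dividing precursors, 2.13 in immature neurons and 2.37 in cells without Neurod1. The remaining genes higher were Ccdc85a, Fam183b, AC149090.1, Wdr37 and Hook2, with ratios of 3.03 to 3.60 beside 2.86 for Fam183b and 2.94 for AC149090.1.

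Among the genes lower in the P10 mutant were Obp2a and Lcn3, which encode lipocalins of nasal glands. Obp2a had 7 UMIs in 7 of 26 mutant cells and 182 in 68 of 80 control cells, and Lcn3 17 in 6 and 141 in 64. The whole gland list of 6 genes was at 36.7 CPM in precursors of the P10 mutant and 123 CPM in those of the control, with Bpifb9a, Bpifb9b and Obp1b at 0 UMIs in both. Gland UMIs therefore differed in level between the libraries, and their part in other differences was not tested. Neutrophil genes differed as well, at 591 and 96.9 CPM, with 50.3% of the mutant UMIs in 1 cell. Ftl1-ps1, at 0.363 (0.297 to 0.440), is a pseudogene of ferritin light chain and shares reads with its parent gene, so its value is uncertain. The transcription factor genes Cebpa and Pou3f1 were at 0.319 (0.154 to 0.599) and 0.196 (0.0388 to 0.617), while in dividing cells they were at 0.740 (0.436 to 1.21) and 3.09 (0.891 to 12.0). The chemokine gene Cxcl14 was at 0.209 (0.0655 to 0.515), and the fumarase gene Fh1, Emc8 of the ER membrane complex and 9130401M01Rik at 0.196 (0.0515 to 0.533), 0.330 (0.159 to 0.621) and 0.170 (0.0338 to 0.530). In immature neurons Cebpa, Cxcl14, Fh1 and Emc8 had ratios of 0.817, 1.02, 0.894 and 0.916.

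**Figure D4:**
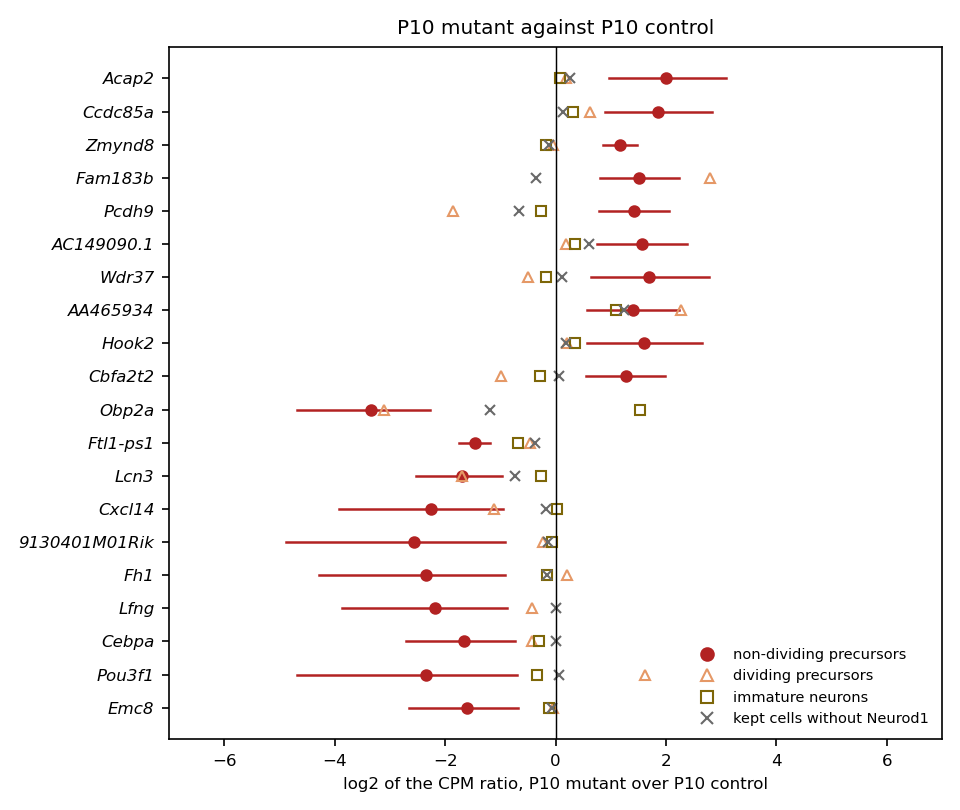
Log2 of the CPM ratio of the P10 mutant over the control for the 10 genes furthest apart in each direction, in non-dividing precursors (filled circles, with 95% intervals for counting error), dividing precursors (triangles), immature neurons (squares) and kept cells without Neurod1 (crosses). The genes were chosen by the circles, and except for AA465934, Obp2a and Lcn3 most other symbols lie nearer 0 (Acap2 at 4.01-fold in non-dividing precursors and 1.06-fold in immature neurons).

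At 3 months most stage genes of non-dividing mutant precursors were within 2-fold of the P10 mutant. Over 3254 genes, 4.67% were at least 2-fold higher at 3 months than in the P10 mutant and 10.4% at least 2-fold lower. Of 15 proneural genes 2 were at least 2-fold higher (Sox2 and Neurog1, each with most of its 3-month UMIs in 1 cell) and none lower, and none of 16 immature neuron genes was 2-fold apart. Meis2 was at 1172 against 815 CPM (ratio 1.44, 1.19 to 1.74), Bcl11b at 151 against 207 CPM (ratio 0.730, 0.431 to 1.19), Insm1 at 194 against 276 CPM (ratio 0.704, 0.445 to 1.08) and Gap43 at 280.4 against 240.0 CPM (ratio 1.17, 0.786 to 1.71). The Meis2 ratio did not hold without the precursors that had UMIs of other or sustentacular cells, where its log2 value was -0.0049 in place of 0.52. Neurod1 itself, which the rule used, was at 2531 and 827 CPM.

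Histone genes were 4 of the 10 genes ranked as furthest higher at 3 months. Hist1h1e (chr13:23620629-23622558, minus strand), a linker histone gene, was at 1071 against 26.1 CPM, a ratio of 41.0 (22.3 to 83.9), and was seen in 14 of 16 cells at 3 months and 9 of 26 at P10. The core histone genes Hist1h2ap, Hist1h2ae and Hist1h2bc were 8.37 (5.45 to 13.2), 7.26 (4.49 to 12.1) and 3.18 (2.45 to 4.13) times higher. In dividing precursors the ratios of the 4 genes were 26.4, 9.97, 6.51 and 1.82, in immature neurons 11.6, 3.17, 2.99 and 1.68, and in cells without Neurod1 4.32, 0.940, 0.715 and 1.13. Cells without Neurod1 had the lowest ratio for each of these genes. Non-dividing precursors had the highest, except for Hist1h2ap, where dividing precursors did. The genes were chosen by their ratio in non-dividing precursors, which favors that set. Whether these differences are of the cells or of the library was not tested. These genes have near-identical copies in the same cluster, so the share of each is uncertain.

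Several other genes were higher at 3 months in precursors and in the rest of the library. Gm42418 and AY036118, noncoding genes that overlap each other on opposite strands and take up ribosomal RNA reads, so that their values are uncertain, were 22.3 (20.6 to 24.2) and 11.7 (8.01 to 17.7) times higher, and 23.0 and 18.1 times in cells without Neurod1. Lars2, a mitochondrial tRNA synthetase gene, was 18.8 (12.9 to 28.3) times higher and 18.4 times in cells without Neurod1. Igkc, an immunoglobulin gene of plasma cells, had 62 UMIs in 15 of 16 cells and 0 in the P10 mutant, at least 62.5-fold apart, while all 6 genes of the lymphocyte list were at 0 in the precursors at 3 months. Obp2b, a gland gene, had 29 UMIs against 1, and the gland list was at 903 CPM in 3-month precursors against 36.7 CPM in the P10 mutant. The interferon-induced gene Ifi27 was 6.12 (4.25 to 8.91) times higher. Lower at 3 months were the actin gene Actg1 (ratio 0.398, 0.344 to 0.458), the keratin gene Krt8 (ratio 0.478, 0.396 to 0.573) and Crabp1 (ratio 0.366, 0.254 to 0.514). Actg1 and Krt8 had ratios of 0.489 and 0.404 in cells without Neurod1, and Crabp1 had 1.43 in immature neurons. Tagln2 and Myl12a, of the actin cytoskeleton, were at 0.242 and 0.252, and Glo1, Fam183b, Fam193b and Sri at 0.0776 (0.00192 to 0.459), 0.0818 (0.00202 to 0.485), 0.204 (0.0645 to 0.499) and 0.0917 (0.00225 to 0.548), with 1 to 5 UMIs each at 3 months.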

How the data were processed

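Vomeronasal organs of 3 groups were profiled with 1 droplet library each (10x Genomics 3' v3.1, frozen papain-dissociated suspensions). The deposited matrices hold whole-number counts of UMIs per gene and barcode, which the authors made with Cell Ranger (per the file headers, version 4.0.0 at P10 and 6.0.1 at 3 months). The submitters' notes also name bcl2fastq, Seurat 3.2.3 and mm10. The version differs between ages, so its part in the comparison of ages cannot be told apart.

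Barcodes and precursors were chosen as the report states. Members, gene lists and comparisons were chosen with earlier results of these data known. Counts were summed over the cells of a set and divided by the set's total. Set totals ran from 124502 to 1073369 UMIs. A gene entered a comparison with 30 UMIs over both sets and was counted at a 2-fold ratio. A set at 0 was given a bound at 3 counts over the set. The genes named were the 10 in each direction whose interval bound nearest 1 was furthest from it, with a UMI in 5 or more cells of the higher set, at most 25% of UMIs in 1 cell, and mitochondrial and rule genes left out. For the dividing cells the bound was the least of the 3 libraries, with the same direction in each. Genes of the fixed lists were named beside these. Some genes are not reported here. With 1 library per group no p-value was computed. No doublet caller was run; instead, members with over 0.2% of UMIs from other cell types were left out as an alternative. Other alternatives were a 5% mitochondrial limit, Neurod1 from 1 or 4 UMIs, dividing from 4 UMIs, thinning to 2000 UMIs, means over cells and leaving out the top cell of each gene. Gene positions are from GENCODE M21 (GRCm38). Python 3.11.15, numpy 2.4.6, scipy 1.17.1, pandas 2.3.3 and matplotlib 3.10.9 were used. The ratio intervals were tested on simulated Poisson counts, the error they assume. The simulation had no variation between cells, so it does not show how they behave with such variation.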

Additional observations from a re-analysis of the deposited data

Results flagged for a closer look

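Some genes of the neuronal or sustentacular lists had intervals on opposite sides of 1 in different libraries when dividing precursors were set over non-dividing ones, and none of these differences was tested. Hes1, a Notch target that supporting cells also use, had a ratio of 0.292 in control cells and 2.10 in the P10 mutant. Without the members that had UMIs of other or sustentacular cells it was 0.298 and 0.0645. Cbr2, a sustentacular gene, followed it, at 0.294 in the control, 2.78 in the P10 mutant and 0.223 at 3 months, and at 0.219, 0.115 and 0.235 without those members. Tubb3, a tubulin gene of neurons, was at 1.34 in the control, 0.615 in the P10 mutant and 0.743 at 3 months, and Stmn1, a stathmin gene, at 1.17, 0.792 and 0.821. Elavl4 was at 1.52 in the control and 0.693 at 3 months. Tubb3 stayed on the same side of 1 in each library without those members, at 1.21, 0.733 and 0.792. Stmn1 was then at 1.14, 0.947 (0.871 to 1.03) and 0.856, so that its P10 mutant interval held 1, and Elavl4 was at 1.48 in the control and 0.608 at 3 months.

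Barcodes that met every limit except the mitochondrial one numbered 31 in the control, 21 in the P10 mutant and 4 at 3 months. They hold Neurod1 and were not used in the comparisons.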

How the results depend on the processing

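No paired analysis was possible because each group has 1 library and no result comes from a test. Of 155 summary values under the alternatives, 127 stayed within the counting interval, or within 1.5 times for list medians and shares of genes, 28 did not, and none reversed. Only a list median, or a log2 ratio whose interval left out 0, could be called reversed. Shares of cells, shares of genes and CPM values could not. The share of precursors (2.36%, 1.06% and 0.330% in the control, P10 mutant and 3-month mutant) was 1.65% and 0.706% at P10 with a 5% mitochondrial limit and 1.60% and 0.627% after thinning. With Neurod1 from 1 UMI it was 3.75%, 2.00% and 0.560%, and from 4 UMIs 1.79% in the control. The dividing share in the P10 mutant was 22.8% from 1 UMI. The G2 and M phase median log2 ratio was 2.69 thinned and 2.82 as a mean over cells for the control, and in the P10 mutant 4.37 (Neurod1 from 1 UMI), 4.59 (dividing from 4 UMIs), 2.57 (mean over cells) and 4.23 (without the top cell). The Notch1 log2 ratio was 2.82 in the control at the 5% limit and 2.65 at 3 months without the top cell. Genes at least 2-fold apart at P10 were 4.95%, and 10.4% at the 5% limit and 10.1% as a mean over cells. Between ages they were 15.1%, and 8.97% thinned. Tfap2e in P10 mutant precursors was at 35.5 CPM (5% limit), 105 CPM (Neurod1 from 1 UMI), 26.6 CPM (without other cell types), 28.6 CPM (without sustentacular UMIs as well, a setting chosen after seeing the data), 23.8 CPM (thinned) and 26.3 CPM (without the top cell), and its log2 ratio to the control was 2.93 at the 5% limit and 1.47 thinned.

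Of 2230 values for single genes, 1793 stayed within the interval, 417 moved past it and 20 reversed, and the cause was not tested. For dividing over non-dividing log2 ratios in the control, the 5% limit gave Ccnd2 2.34, Hes1 0.89 and Bcl11b -1.59, and thinning Gadd45g -0.54. In the P10 mutant, Neurod1 from 1 UMI gave Lhx2 0.44, Sox11 0.27, Ebf1 0.28 and Hes1 -0.35, and at 3 months Sox11 0.17. Thinning gave Ebf1 0.093, Ccnd1 -2.02 and Mfng -0.022. Hes1 was also at -3.73 with Neurod1 from 4 UMIs and at -3.96 in the setting chosen after seeing the data. Between the P10 libraries AC149090.1 was at -0.23 (5% limit), and Cxcl14 at 0.10 and Cebpa at 0.20 (thinned). Between ages Tagln2 was at 0.21 (5% limit), Crabp1 at 0.13 (thinned) and Meis2 at -0.0049 in the added setting. A further 152 values could not be had, since too few UMIs were left. With 7 to 33 dividing cells a library, 1 cell can set the level of a gene of few UMIs.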
